A study of Mus musculus with 12 samples.

Results

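The 7 genes described here encode the inhibitors of cyclin-dependent kinases (CDKs) of the mouse, Cdkn1a, Cdkn1b, Cdkn1c, Cdkn2a, Cdkn2b, Cdkn2c and Cdkn2d, out of 22350 protein-coding genes on chromosomes 1 to 19 and X. They were taken as a family by name, at a time when earlier results of these data were known. The data were 12 ChIP-seq libraries, 1 in each of myoblasts and myotubes for each of 6 histone marks, H3K4me3, H3K4me2, H3K4me1, H3K27ac, H3K27me3 and H3K36me3. The cells were C2C12, a mouse muscle cell line whose strain the labels give as C3H. Myoblasts grew in medium with 10% serum and were close to confluence. Myotubes were taken about 5 days after serum had been withdrawn and were freed of unfused cells by brief trypsin treatment. All cells were at passage 15 to 18. C2C12 is a single established line, there was 1 library per mark and cell type, and no input library was used here, so that differences between myoblasts and myotubes below are differences between libraries with no replicate check.

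CDK inhibitors hold back the cell cycle. The Cip/Kip proteins p21 (Cdkn1a), p27 (Cdkn1b) and p57 (Cdkn1c) bind cyclin-CDK complexes, while the Ink4 proteins p16 (Cdkn2a), p15 (Cdkn2b), p18 (Cdkn2c) and p19 (Cdkn2d) bind CDK4 and CDK6 themselves. Cdkn2a also encodes, from a start site further upstream and in another reading frame, the protein ARF, which shields p53 from Mdm2. Myoblasts leave the cell cycle for good when they fuse into myotubes, and p21 is a well-known gene of that step. H3K4me3 and H3K27ac mark active promoters, H3K4me1 and H3K4me2 lie at their borders and at enhancers, H3K36me3 covers transcribed gene bodies, and H3K27me3 is laid down by Polycomb, which silences Cdkn2a and Cdkn2b in many dividing cells.

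The 7 genes fell into 3 sets. Cdkn1a, Cdkn1b and Cdkn2c carried H3K4me3 and H3K27ac in both cell types. In myoblasts Cdkn1c carried H3K4me2 and H3K4me1 without H3K4me3, and in myotubes little of any of them. Cdkn2a, Cdkn2b and Cdkn2d had almost no read of any mark. The sequences upstream of the start sites of 4 of the genes are shown, Cdkn1a for the active set and the others for the genes without reads, as 200 bases of mm9 each, read 5′ to 3′ on the strand of the gene and ending at the base before the annotated start. Capitals mark GGGCGG and its reverse complement CCGCCC, the box bound by Sp1-type factors, searched on both strands with overlaps allowed.
Cdkn2a, Arf start (chr4:88940558-88940757, minus strand): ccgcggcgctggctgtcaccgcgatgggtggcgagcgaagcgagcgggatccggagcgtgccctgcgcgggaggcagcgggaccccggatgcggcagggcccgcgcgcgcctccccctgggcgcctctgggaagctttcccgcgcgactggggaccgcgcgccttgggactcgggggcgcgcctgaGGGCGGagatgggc
Cdkn2a, Ink4a start (chr4:88928097-88928296, minus strand): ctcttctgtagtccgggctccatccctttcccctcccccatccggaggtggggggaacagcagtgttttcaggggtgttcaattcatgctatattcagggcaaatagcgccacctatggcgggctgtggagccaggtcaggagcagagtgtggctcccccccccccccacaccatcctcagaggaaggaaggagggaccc
Cdkn2b (chr4:88956942-88957141, minus strand): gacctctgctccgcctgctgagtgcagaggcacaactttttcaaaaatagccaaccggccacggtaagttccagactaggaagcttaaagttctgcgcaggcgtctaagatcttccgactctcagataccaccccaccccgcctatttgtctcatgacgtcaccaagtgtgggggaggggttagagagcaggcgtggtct
Cdkn2d (chr9:21095654-21095853, minus strand): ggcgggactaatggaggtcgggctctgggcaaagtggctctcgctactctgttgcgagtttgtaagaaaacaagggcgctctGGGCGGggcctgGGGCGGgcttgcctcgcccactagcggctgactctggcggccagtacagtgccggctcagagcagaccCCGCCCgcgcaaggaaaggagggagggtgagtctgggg
Cdkn1a, main start (chr17:29230517-29230716, plus strand): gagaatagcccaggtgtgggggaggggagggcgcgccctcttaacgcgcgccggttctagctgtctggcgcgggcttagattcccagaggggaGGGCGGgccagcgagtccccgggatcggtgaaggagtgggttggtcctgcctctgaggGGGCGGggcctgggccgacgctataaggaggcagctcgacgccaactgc

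At least 1 such box was found in 39.8% of 22345 promoters over the same 200 bases. It occurred 3 times upstream of Cdkn2d, 2 times upstream of Cdkn1a, and once upstream of the Arf start and of Cdkn1b. None was found upstream of the Ink4a start, Cdkn2b or either start of Cdkn2c. The 200 bases held 31 CpG dinucleotides at the Arf start, 27 at Cdkn1b, 17 at Cdkn1a, 14 at Cdkn2d and 9 at Cdkn2b. Cdkn2c held 6 at its inner and 4 at its outer start, and the Ink4a start held 4. The median over all promoters was 8. Genes with and without reads thus overlapped in both counts, also with Cdkn2d left out. A stretch of 32 bases occurred exactly once in mm9 at every position of these 200 bases for each of these genes but Cdkn2d, where it did so at 0% of positions. The reads were 34 bases long and had been kept only where they aligned uniquely.

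The Cdkn2a and Cdkn2b locus was nearly empty of reads in all 12 libraries. Cdkn2a lies at chr4:88920377-88940557 and Cdkn2b at chr4:88952198-88956941 (mm9, both on the minus strand). Within 1 kb of the Arf start at 88940557 the myoblast libraries held 0 reads for all 6 marks. In myotubes there were 2 reads of H3K27ac, 1 of H3K4me2 and 0 of the other 4 marks. Around the Ink4a start at 88928096 the 12 libraries together gave 1 read, of H3K27ac in myotubes, and the same was found around the start of Cdkn2b at 88956941. H3K27me3, the Polycomb mark, was thus at 0 reads at the 3 start sites in both cell types. A count of 0 allows up to 0.547-fold of the genome mean in the myoblast and 0.765-fold in the myotube H3K27me3 library, where the limit is taken as 3 reads in the 2 kb window, and up to 1.38-fold and 1.16-fold for H3K4me3. Over the whole body of Cdkn2a, 20181 bp, the 12 libraries together gave 1 read, and over that of Cdkn2b, 4744 bp, also 1. No deposited peak of any mark overlapped either gene within 1 kb of a start site.

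The reads of all 12 libraries in 200 kb around each gene were then set against the genome mean. Around Cdkn2a there were 868 reads where the mean predicts 4522, a pooled fold of 0.192 with a counting interval of 0.179 to 0.205. Around Cdkn2b there were 677, a fold of 0.150 (0.139 to 0.161). The other 5 members lay at 1.29 (Cdkn2c), 1.61 (Cdkn1c), 2.14 (Cdkn1b), 2.66 (Cdkn2d) and 4.53 (Cdkn1a). All intervals here are exact 95% Poisson or binomial intervals that cover counting error only. The median of 12802 windows of 200 kb over the genome was 0.678, and 8.59% of them were at or below the value of Cdkn2a and 5.13% at or below that of Cdkn2b. The 2 genes were low in each library: the fold around Cdkn2a ran from 0.107 (H3K36me3 in myotubes) to 0.411 (H3K4me1 in myoblasts), and that around Cdkn2b from 0.0561 (H3K27me3 in myotubes) to 0.350 (H3K4me1 in myoblasts). These folds depend on the width, because the 200 kb take in reads beyond the empty stretch. With 400 kb they were 0.683 and 0.613, and with 100 kb 0.245 and 0.0203. They also depend on assembly gaps, since 51082 bases around Cdkn2a and 51182 around Cdkn2b are N, and none around the other members. Over bases other than N the folds in 200 kb were 0.258 and 0.201. The shares of windows above were not corrected for N.

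The empty stretch itself had a sharp end on the right. In windows of 10 kb, 24 in a row from chr4:88910001 to 89150000 held under 10% of the median window, which is 130 reads of the 12 libraries, and the 240 kb together gave 27 reads. Such windows made up 3.98% of the 255139 windows of the genome that hold no N. The outermost reads placed the stretch at chr4:88910640-89153362, 242723 bp, of which 51337 positions could not be read because the assembly holds N there. On the right the reads stopped within a kilobase, since the next 1 kb held 45 reads and consisted of unique sequence throughout. The left end was less certain: the outermost 1 kb with reads held 6 of them, 51.4% of it was unique, and beyond it lay another 4.26 kb without a read, 6.29% of it unique. Besides Cdkn2a and Cdkn2b the stretch held the lincRNA genes Gm12609 and Gm12610, the pseudogene Gm12608 and the end of the non-coding transcript Gm12606.

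**Figure D1:**
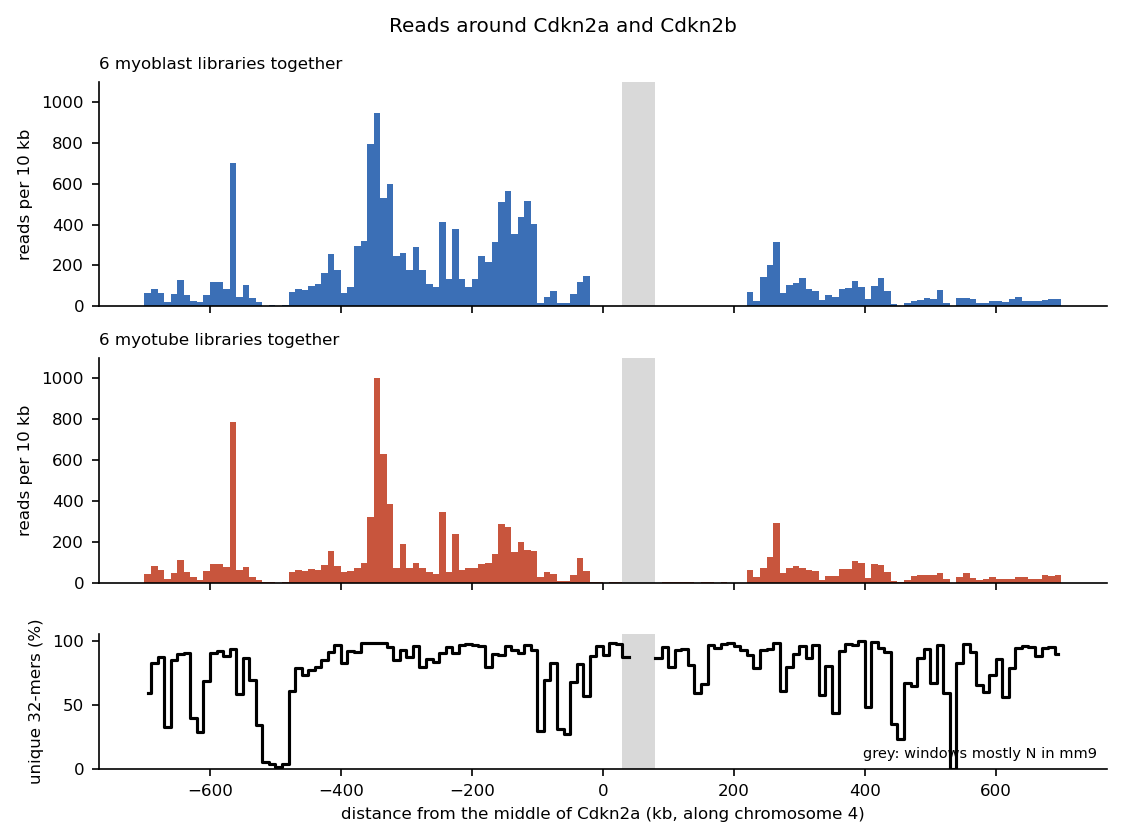
Reads per 10 kb of the 6 myoblast libraries (top) and the 6 myotube libraries (middle) and the share of unique 32-base stretches (bottom), against distance from the middle of Cdkn2a in kb. Both cell types drop to almost 0 from about the left of Cdkn2a over 240 kb while the sequence there stays 89.3% unique, whereas the dip near the interferon genes on the far left falls where few stretches are unique.

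Read-poor runs elsewhere lay mostly in repeated sequence, while that around Cdkn2a did not. In the 240 kb, 89.3% of the readable 32-base stretches were unique. The genome held 78 runs of such windows with at least as many readable bases; their median was 6.25% unique, 4 exceeded 50%, and the run around Cdkn2a had the highest share, followed by 1 with 70.9%. From its unique bases, the inner stretch would hold 3874 reads at the genome mean, and 22 were found, 0.568% of the mean (0.356 to 0.860). The 200 kb to its left, counted in the same way, were at 185% of the mean and the 200 kb to its right at 93.6%. Promoters with at most 3 reads in the 12 libraries together made up 5.15% of all 22350, and 3 of the 7 inhibitors, Cdkn2a, Cdkn2b and Cdkn2d, were among them. Of these 1151 promoters, 699 had less than 10% unique stretches and 17 more than 90%, Cdkn2a and Cdkn2b being in the latter group.

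The 22 reads inside the stretch were unevenly shared by the libraries. The 6 myoblast libraries gave 2, 1 each of H3K4me2 and H3K27ac, or 0.101% of the mean (0.0123 to 0.366). The 6 myotube libraries gave 20, or 1.05% (0.643 to 1.62). Of those 20, 13 came from H3K27ac, 3 from H3K4me1, 2 from H3K4me2, 1 each from H3K27me3 and H3K36me3, and 0 from H3K4me3. The H3K27ac library of myotubes was thereby at 4.11% of its mean (2.19 to 7.02), above the intervals of the H3K4me3, H3K4me1, H3K27me3 and H3K36me3 libraries of myotubes, whose upper ends were 1.67%, 2.09%, 1.66% and 1.93%, but overlapping that of H3K4me2, which reached 2.27%. Over the 240 kb of whole windows the same library stood at 4.50% of its mean, and in the 3 other read-poor runs with more than 50% unique sequence between 0.385% and 0.948%. Within 20 kb upstream of the Arf start, a distance chosen after the positions were seen, lay 7 of the 22 reads, 5 of H3K27ac and 2 of H3K4me2, all from myotubes. Whether the DNA of the locus is present in these cells was not tested, because no input library was used here and absence of DNA and absence of precipitated chromatin cannot be told apart from reads of 6 histone marks.

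The nearest protein-coding gene on either side of the stretch had reads again. Within 1 Mb of the Arf start the annotation has 40 protein-coding genes, and 14 of them had at most 3 reads at their promoter in the 12 libraries together. Of all promoters 5.15% did so. Of the 32 interferon and predicted genes among the 40, 12 did so. Most of these 12 start in windows of 10 kb centred 485 to 515 kb left of the middle of Cdkn2a. There 1.93% to 5.68% of the 32-base stretches were unique. The other 8 ranged from 1 read (Cdkn2b) and 3 (Cdkn2a) to 623 (Klhl9). Mtap, the gene of methylthioadenosine phosphorylase and the neighbour on the left, 157.5 kb away, had H3K4me3 at 34.6-fold in myoblasts and 22.5-fold in myotubes. Dmrta1, 414.3 kb away on the right, had H3K4me3 at 0.461-fold and 0.776-fold but H3K27me3 at 5.29-fold in myoblasts and 1.02-fold in myotubes. Over the 200 kb to the right of the stretch the H3K27me3 libraries stood at 208% (myoblasts) and 176% (myotubes) of their mean.

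Cdkn2d, the gene of p19 Ink4d, was as empty as Cdkn2a at its promoter, but in a different setting. It lies at chr9:21092907-21095653 on the minus strand. Within 1 kb of its start the 12 libraries together gave 1 read, of H3K4me2 in myotubes. The 2 kb window contained 0 unique 32-base stretches, and the body 4.22%. A stretch of 3894 bp around the start, chr9:21094023-21097916, occurs a second time without a mismatch at chr9:123834597-123838490, on the opposite strand and 237.7 kb from the end of the assembled chromosome, where the annotation places the predicted gene Gm4694. The copies gave 4 and 2 reads in the 12 libraries together. The upstream sequence printed above for Cdkn2d lies inside this copy. Around it, 6200 bp were 2.45% unique and held 24 reads where the genome mean would give 140.2 by length and 3.44 by unique bases. Beyond it the chromosome was well covered, as its 200 kb fold of 2.66 shows. The marks of Cdkn2d can therefore not be read from uniquely aligned reads.

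Of the other 4 members, Cdkn1a had the highest H3K27ac and H3K36me3 at its promoter in both cell types. Cdkn2c and Cdkn1b were above it in H3K4me2 in myotubes, and Cdkn1c in H3K4me1 in myoblasts. Cdkn2c was also above it in H3K4me3 in myoblasts, at 66.4-fold, with overlapping intervals. The main start of Cdkn1a, at chr17:29230717 on the plus strand, had 142 reads of H3K4me3 in myoblasts and 169 in myotubes. These were 65.5-fold (55.2 to 77.2) and 65.6-fold (56.0 to 76.2) over the genome mean. H3K27ac had 212 and 434 reads, or 145.9-fold and 117.5-fold, above 99.8% of all promoters in each cell type. Both marks were high in both libraries. H3K4me2 was 53.6-fold with 180 reads in myoblasts and 16.9-fold with 63 in myotubes, and H3K4me1 5.73-fold with 29 and 3.87-fold with 19. H3K36me3 rose from 2.91-fold (16 reads) to 8.01-fold (27 reads), and H3K27me3 stood at 9 reads and 1 read, neither above the genome mean by its interval.

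Cdkn1b and Cdkn2c carried the same marks of active promoters. Cdkn1b, at chr6:134870419 on the plus strand, had H3K4me3 at 44.7-fold with 97 reads in myoblasts and 39.2-fold with 101 in myotubes. H3K27ac was 31.7-fold with 46 reads and 26.0-fold with 96 reads of the deeper myotube library, and H3K4me2 25.6-fold with 86 and 23.4-fold with 87. Cdkn2c, on the minus strand of chromosome 4 but outside the empty stretch, has 2 start sites 1817 bp apart whose windows overlap. The inner start at 109337977 had H3K4me3 at 66.4-fold with 144 reads in myoblasts and 62.1-fold with 160 in myotubes, and the outer start at 109339794 had 36.4-fold with 79 and 25.2-fold with 65. H3K27ac at the inner start was 22.7-fold with 33 reads and 13.3-fold with 49, and at the outer start 40.6-fold with 59 and 18.1-fold with 67. H3K4me2 at the inner start was 19.7-fold with 66 reads and 39.5-fold with 147. In myoblasts the order of H3K4me3 was Cdkn2c, Cdkn1a, Cdkn1b, Cdkn1c, and the intervals of Cdkn2c and Cdkn1a overlapped, whereas that of Cdkn1b ended at 54.6 below both.

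Cdkn1c, the imprinted gene of p57 at chr7:150646955 on the minus strand, had next to no H3K4me3, with 4 reads in myoblasts and 2 in myotubes, or 1.84-fold and 0.776-fold. H3K27ac had 1 read and 3 reads. Instead the gene carried H3K4me2 at 18.5-fold with 62 reads and H3K4me1 at 7.90-fold with 40 reads in myoblasts. In myotubes these stood at 2.96-fold with 11 reads and 0.816-fold with 4. Over its body, 2701 bp, H3K27me3 was 2.70-fold with 20 reads in myoblasts and 0.567-fold with 3 in myotubes. Reads of the maternal and paternal copy of an imprinted gene were not separated.

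**Figure D2:**
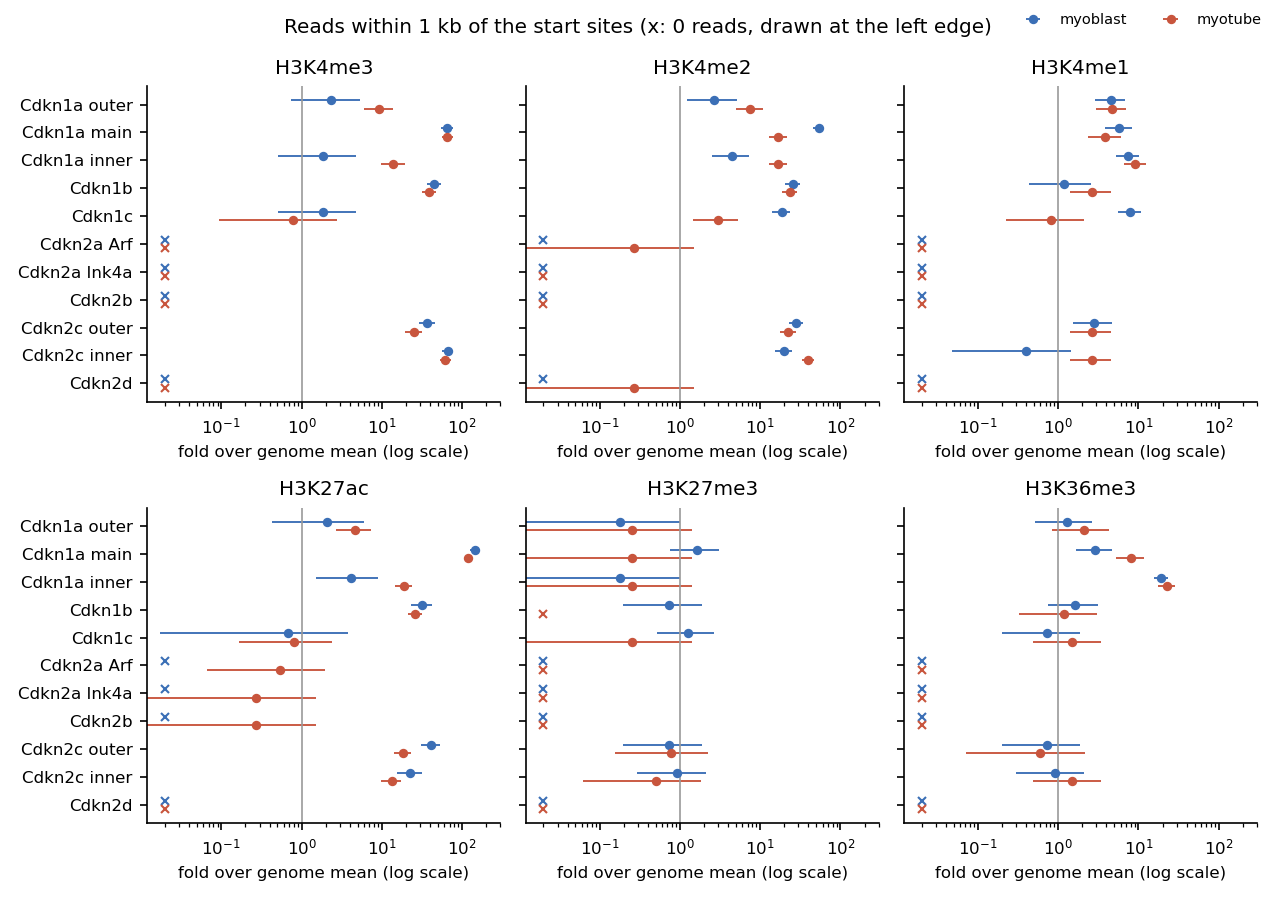
Fold over the genome mean (log axis) within 1 kb of each of 11 start sites of the 7 genes, in 1 panel per mark, for the myoblast library (blue) and the myotube library (red) with exact 95% Poisson intervals. Crosses are counts of 0. Cdkn1b, both starts of Cdkn2c and the main start of Cdkn1a lie far to the right of the line at the genome mean for H3K4me3 and H3K27ac. In myoblasts the outer and inner starts of Cdkn1a lie much nearer to that line for these marks, with H3K4me3 at 2.31-fold and 1.84-fold. Cdkn1c lies to the right of the line for H3K4me2 and H3K4me1 in myoblasts. Cdkn2a, Cdkn2b and Cdkn2d have crosses or intervals that reach below the line throughout.

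Calls were counted over the 7 genes, each by the start site with the most H3K4me3 reads in both cell types together. A promoter was called above the genome mean where the lower end of its interval exceeded 1. For H3K4me3 this held for 3 of 7 in myoblasts and 3 of 7 in myotubes, against 54.6% and 54.3% of all promoters. For H3K27ac it held for the same 3 in both, Cdkn1a, Cdkn1b and Cdkn2c, against 51.6% and 50.6%. For H3K4me2 it was 4 and 4, against 61.7% and 59%, and for H3K4me1 2 and 3, against 48.5% and 47.6%. H3K36me3 was above the mean at Cdkn1a alone in both cell types, against 13.7% and 11.5% of promoters. H3K27me3 was above it at 0 of 7 in both, against 18.1% and 12.6%. Cdkn2a, Cdkn2b and Cdkn2d, with at most 3 reads each, were above the mean in 0 libraries, so that all calls came from the other 4 genes. The window of Cdkn2d held 0 unique stretches and could not have been called. Cdkn2a and Cdkn2b lie in the empty stretch. The counts out of 7 are therefore no measure of the family against all promoters.

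Between the cell types, promoter ratios were formed from the reads within 1 kb, scaled by total reads. For H3K4me2 the myotube library held 1.11 times the reads of the myoblast library in all, and 1.72 times outside peaks. Plain H3K4me2 ratios would therefore be lower if scaled by reads outside peaks. A ratio was called where both libraries together had at least 20 reads and it was at least 2 or at most 0.5 after 1 read had been added to each count. The median promoter did not sit at 1: for promoters where H3K4me3 peaks were listed in each cell type the log2 median was -0.20 for H3K4me3, -0.68 for H3K4me2, -0.04 for H3K4me1, -0.84 for H3K27ac, -0.45 for H3K27me3 and -0.21 for H3K36me3. Values relative to that median, with 1 read added, are therefore given beside the plain ratios at start sites.

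At the main start sites the H3K4me3 ratios had intervals that included 1. The interval of the ratio was 0.796 to 1.26 at Cdkn1a, and the ratio was 0.876 (0.656 to 1.17) at Cdkn1b and 0.935 (0.741 to 1.18) at Cdkn2c, or 1.15, 1.01 and 1.08 times the median, and 0 of these 3 were called under either scaling, against 3.59% of 11492 promoters higher and 7.72% lower by total reads and 4.86% and 4.57% relative to the median. For H3K27ac the ratios were 0.805 (0.682 to 0.954), 0.821 (0.572 to 1.19) and 0.584 (0.368 to 0.938), or 1.44, 1.45 and 1.03 times the median, and again 0 of 3 were called, against 5.37% higher and 41.4% lower by total reads and 15.1% and 12.4% relative to the median. At the outer start of Cdkn2c, which did not represent the gene, the ratio of H3K27ac was 0.447 (0.310 to 0.645), or 0.796 times the median. For H3K27me3 no member reached 20 reads, and 2.44% of 3405 promoters were higher and 20.1% lower.

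H3K4me2 parted the 4 genes. By total reads 2 of 4 were at least 2-fold lower in myotubes, Cdkn1a at 0.316 (0.233 to 0.423) and Cdkn1c at 0.160 (0.0760 to 0.307), and 0 were higher, against 36% and 2.45% of 13365 promoters. Cdkn2c stood at 2.01 (1.49 to 2.73) without an added read and 1.99 with it, and Cdkn1b at 0.913 (0.670 to 1.24). Relative to the median, 1 of 4 was higher, Cdkn2c at 3.20 times, and 1 lower, Cdkn1c at 0.276 times, against 7.51% and 10.5% of promoters, while Cdkn1a was at 0.512 times. Over the 6 marks the calls by total reads were 1 higher and 3 lower, and relative to the median 2 higher and 2 lower. H3K4me1 was lower at Cdkn1c, 0.103 (0.0268 to 0.286) or 0.130 times the median, which was 1 of 2 tested, and higher at 0, against 18.8% and 8.93% of 11914 promoters by total reads and 17.5% and 9.73% relative to the median. H3K36me3 was higher at the main start of Cdkn1a, 2.75 (1.43 to 5.47) or 3.11 times the median, the single member tested, against 9.16% of 2401 promoters higher and 13.2% lower by total reads and 14% and 8.41% relative to the median. With 2 kb either side that ratio was 1.63 and no longer called.

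At Cdkn1a the libraries also differed away from the main start. Around the inner start at 29235152, 4435 bp downstream, H3K4me3 went from 4 reads in myoblasts to 36 in myotubes, a ratio of 7.57 (2.71 to 29.3). H3K27ac went from 6 to 69 reads, 4.52 (1.98 to 12.8), and H3K4me2 from 15 to 62, 3.73 (2.10 to 7.06). All 3 marks were higher in the myotube library there, also relative to the median of promoters, at 7.17, 7.03 and 5.70 times. H3K4me1, with 38 and 45 reads, and H3K36me3, at 19.1-fold and 22.5-fold, had ratios of 1.22 and 1.18 whose intervals included 1. Around the outer start at 29227924, 2793 bp upstream of the main start, H3K4me3 went from 5 to 24 reads, 4.04 (1.51 to 13.5), and H3K4me2 from 9 to 28, 2.81 (1.29 to 6.76), or 4.04 and 4.201 times the median.

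Zones along the gene, laid out after the profile had been plotted, give the extent of this. The zone farthest downstream contains the window of the inner start and so counts most of its reads again. In the same way, the upstream zone contains the window of the outer start. Between 3 and 6 kb downstream of the main start H3K4me3 rose from 1.54-fold to 16.8-fold, a ratio of 10.9 (4.45 to 34.8), where the median of 1821 genes with at least 20 reads in that zone was 1.36. H3K27ac rose from 3.21-fold to 19.3-fold, 6.01 (2.82 to 15.3) against a median of 0.996, and H3K4me2 from 6.16-fold to 20.8-fold, 3.38 (2.26 to 5.20) against 1.08. Between 1 and 3 kb the ratio was 1.91 for H3K4me3, 0.976 for H3K27ac and 0.693 for H3K4me2, against medians of 1.21, 0.993 and 0.958. From 5 to 1 kb upstream it was 4.39 (2.13 to 10.2), 3.54 (1.09 to 18.2) and 2.26 (1.28 to 4.14), against 1.09, 0.955 and 0.946. The H3K27ac ratio there rests on 3 and 27 reads. The plain H3K4me2 ratios of the zones and of the outer and inner starts would be lower if scaled by reads outside peaks. In the deposited lists the H3K4me3 peak over the main start was 3425 bp wide in myoblasts and 4338 bp in myotubes, and the H3K27ac peak 2571 bp and 4697 bp. Peak widths also depend on depth, and the myotube H3K27ac library held 4721345 reads against 1857191 in myoblasts.

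**Figure D3:**
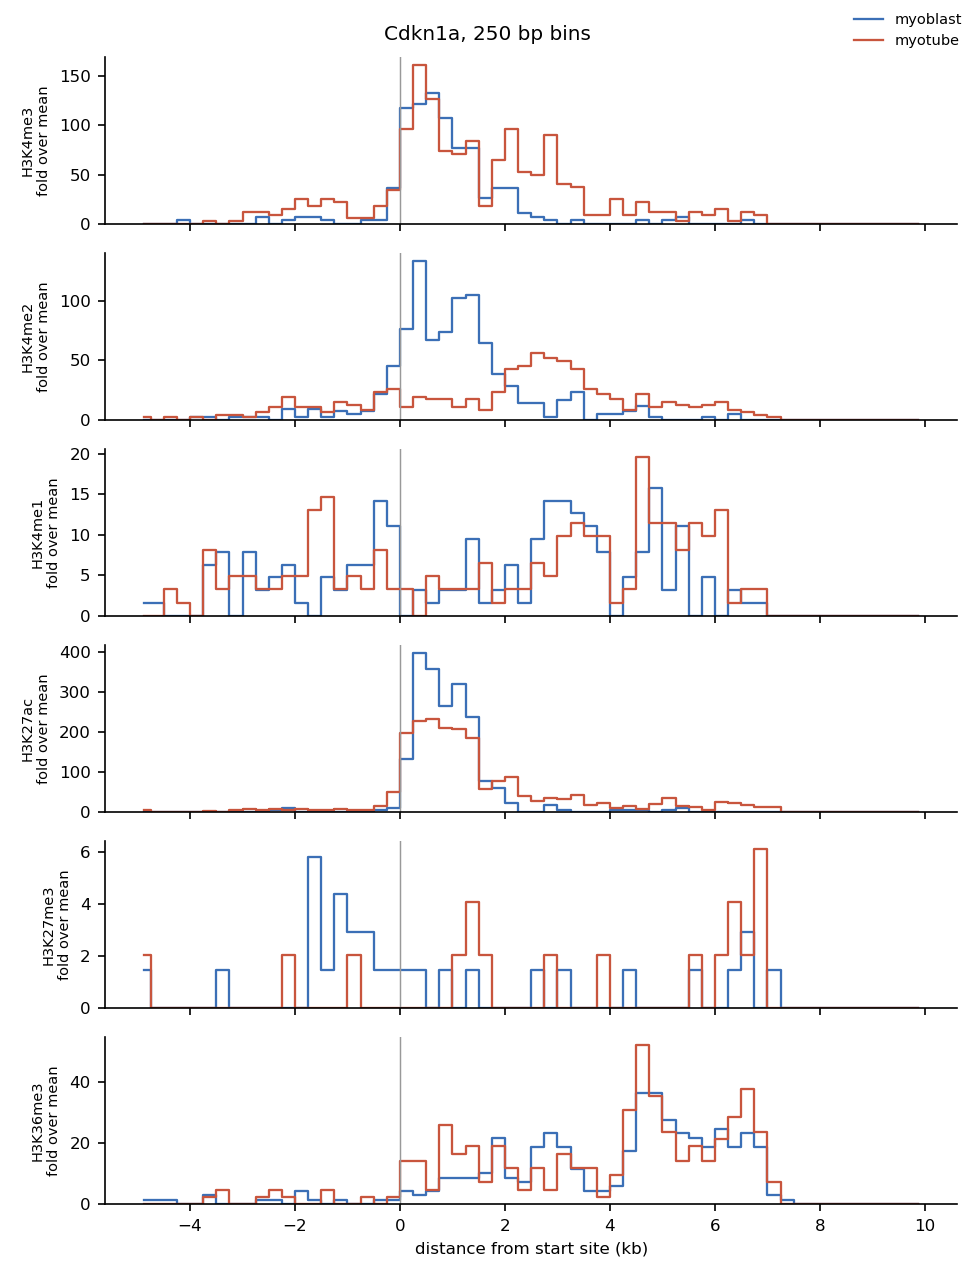
Fold over the genome mean in bins of 250 bp along Cdkn1a, against distance from its main start site in kb, for the 6 marks in myoblasts (blue) and myotubes (red). In myotubes H3K4me3, H3K4me2 and H3K27ac reach further into the gene, and between 3 and 6 kb they stand at 16.8-fold, 20.8-fold and 19.3-fold against 1.54-fold, 6.16-fold and 3.21-fold in myoblasts.

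Over gene bodies, H3K36me3 was highest at Cdkn1a, with 312 reads or 11.6-fold in myoblasts and 222 reads or 13.5-fold in myotubes, a ratio of 1.16 (0.972 to 1.38). Cdkn1b fell from 68 reads or 4.84-fold to 15 reads or 1.74-fold, a ratio of 0.360 (0.191 to 0.636), where the median of 16067 genes was 1.02. Cdkn2c had 35 and 16 reads, and its ratio of 0.745 (0.385 to 1.38) included 1. Thus 1 of 3 tested bodies was lower beyond its counting interval and 0 higher, against 26.1% and 27.8% of all genes. Scaled by reads outside peaks, Cdkn1a stood at 1.30 and was higher as well. For H3K27me3, 1 of 2 was lower, Cdkn1c at 0.210 (0.0399 to 0.708), and 0 higher, against 7.71% and 27% of 16506 genes.

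The bodies of Cdkn1b and Cdkn2c had more H3K4me1 in myotubes, while their H3K4me2 depended on the scaling. Over Cdkn1b H3K4me1 went from 6 reads in myoblasts to 52 in myotubes, a ratio of 8.95 (3.85 to 25.5) against a median of 0.986 over gene bodies, and H3K4me2 from 12.1-fold to 18.2-fold, with an interval of the ratio of 1.17 to 1.93 against a median of 0.880. Over Cdkn2c H3K4me1 went from 15 to 36 reads, 2.48 (1.32 to 4.87), and H3K4me2 from 142 to 271, 1.72 (1.40 to 2.13). Scaled by reads outside peaks, H3K4me2 had ratios of 0.966 (0.753 to 1.24) over Cdkn1b and 1.11 (0.901 to 1.37) over Cdkn2c, and H3K4me1 of 7.23 (3.11 to 20.6) and 2.00 (1.07 to 3.94). H3K4me3 over the same bodies had ratios of 0.852 (0.679 to 1.07) and 0.944 (0.778 to 1.14). At Cdkn1b the H3K4me1 was at 0 reads in myoblasts and 25 in myotubes between 1 and 3 kb downstream of the start, and H3K36me3 there fell from 31 reads to 5.

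**Figure D4:**
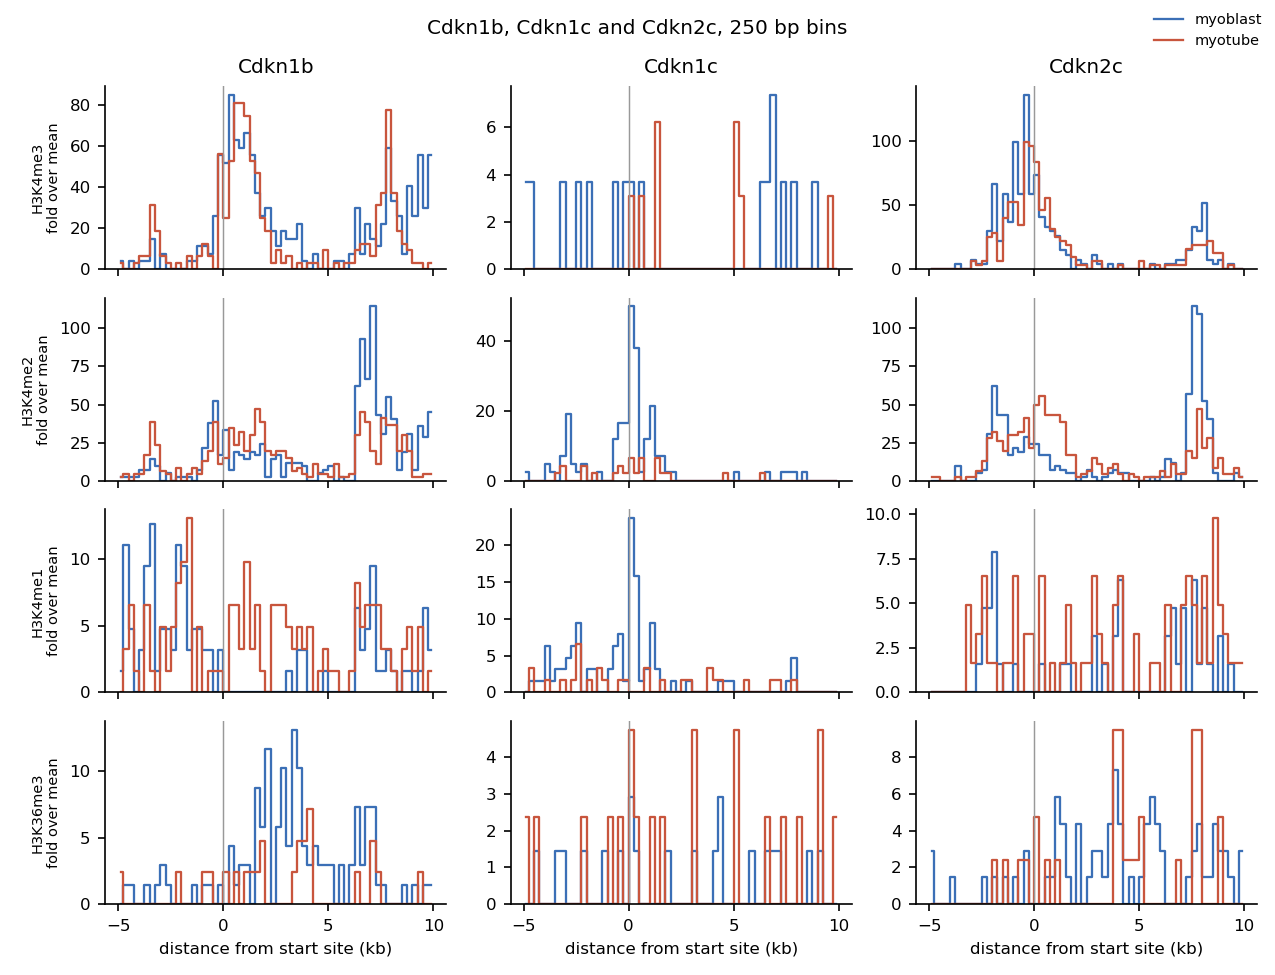
Fold over the genome mean in bins of 250 bp against distance from the start site in kb for Cdkn1b, Cdkn1c and Cdkn2c (columns) and 4 marks (rows), in myoblasts (blue) and myotubes (red). H3K4me1 fills the body of Cdkn1b in myotubes while H3K36me3 there drops from 4.84-fold to 1.74-fold over the gene, H3K4me2 and H3K4me1 at Cdkn1c are seen mainly in myoblasts, and H3K4me2 downstream of the Cdkn2c start is higher in myotubes by total reads.

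The deposited peaks were compared with these counts. A peak of H3K4me3 lay within 1 kb of a start of Cdkn1a, Cdkn1b and Cdkn2c in both cell types, as did one of H3K27ac, where 48.9% and 49.1% of all promoters had an H3K4me3 peak in myoblasts and myotubes and 46.3% and 42.6% an H3K27ac peak. H3K4me2 peaks lay at these 3 genes in both cell types and at Cdkn1c in myoblasts, where there were 3, against 57.1% and 53.3% of promoters. H3K4me1 had peaks at Cdkn1a, Cdkn1c and Cdkn2c in myoblasts and at Cdkn1a in myotubes, against 29.8% and 11.1%. H3K36me3 had peaks at Cdkn1a in both, against 3.47% and 3.77%. Members were counted here by a peak at any annotated start, whereas the shares use 1 start site per gene. The H3K4me1 peaks of Cdkn2c in myoblasts and of Cdkn1a in myotubes lay at their outer starts alone. The H3K36me3 peaks of Cdkn1a in myoblasts lay at its inner start alone. H3K27me3 had a peak at 0 of 7 members, against 4.94% and 1.40% of promoters. Peaks and counts differed at some genes: in myotubes H3K4me1 at Cdkn1b and Cdkn2c and H3K4me2 at Cdkn1c were above the genome mean without a peak. At the main start of Cdkn1a the same held for H3K4me1 in myotubes and H3K36me3 in myoblasts. The lists deposited with the myoblast H3K27me3 and H3K27ac samples were used exchanged, since the regions of the former held H3K27ac reads at 36.4-fold and H3K27me3 reads at 0.804-fold of the mean.

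The partners and regulators of the inhibitors were counted by the same rules. Of 40 listed genes (cyclins and CDKs, pocket proteins and E2F factors, the ARF and p53 side, and regulators of the inhibitors), all were tested for H3K4me3, and 9 were at least 2-fold lower and 1 higher in myotubes. The 9 were the cyclin genes Ccnd1, Ccnd2, Ccne1, Ccne2, Ccna2, Ccnb1 and Ccnb2, the mitotic kinase gene Cdk1 and E2f3. Relative to the median of promoters 8 were lower and 2 higher, where 4.57% and 4.86% of all promoters were. The lowest was Ccnb2, with 42 reads in myoblasts and 7 in myotubes and a ratio with 1 read added of 0.156, and the highest was Fbxw7, whose product marks cyclin E for degradation, with 4 and 130 reads and a ratio of 22.0. Fbxw7 was also highest for H3K4me2, 28.9 with 2 and 95 reads, and for H3K27ac, 13.6 with 1 and 68.

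For H3K27ac, 21 of 39 were lower and 2 higher by total reads, and 13 lower and 10 higher relative to the median. The lowest was Ccnd1, the gene of cyclin D1, with 65 reads in myoblasts and 8 in myotubes, 0.0536. For H3K4me2, 11 of 40 were lower and 2 higher, and 2 lower and 7 higher relative to the median, with Ccnd2 lowest at 0.206 from 174 and 39 reads. For H3K4me1, 2 of 33 were lower and 7 higher under both scalings, from Ccne1 at 0.372 (24 and 8 reads) to Trp53, the gene of p53, at 3.56 (8 and 30 reads). For H3K36me3, 1 of 7 was lower and 0 higher, from Mdm2 at 0.349 (27 and 5 reads) to Myod1 at 1.06 (19 and 12 reads), and for H3K27me3 Ccnd2 was the single gene tested, at 0.758 (23 and 12 reads). The shares of all promoters called by each rule are those given above. Mdm2, which ARF binds and p53 induces, had H3K4me3 at 61.8-fold in myoblasts and 84.6-fold in myotubes.

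**Figure D5:**
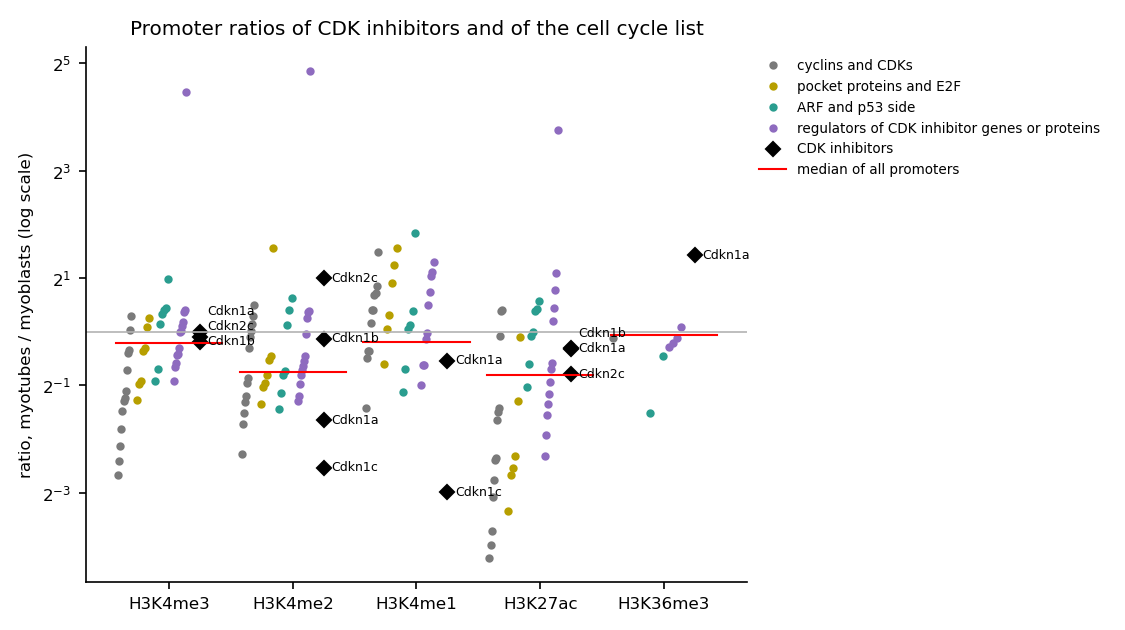
Ratio of myotubes to myoblasts at promoters (log axis, 1 read added) for 5 marks. Small points are the listed cell cycle genes by group, black diamonds the inhibitors with at least 20 reads, and red lines the median of all tested promoters. The inhibitors lie near the red line for H3K4me3, while the lowest cyclin gene, Ccnb2, is at 0.156 and Fbxw7 stands alone at 22.0.

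Marker genes were checked at their promoters. Of 9 muscle genes, 8 had at least 2-fold more H3K4me3 at their promoter in myotubes, and their median rose from 1.84-fold to 41.1-fold. The 4 proliferation genes, among them Mki67, fell from a median of 35.5-fold to 12.2-fold. The same 8 muscle genes were higher for H3K4me2 and H3K27ac, and all 4 proliferation genes were lower for H3K27ac but none was called for H3K4me2. H3K4me1 was higher at 3 muscle genes, at the myoblast genes Id1 and Id3 and at Top2a, and lower at Des. The median H3K4me3 of the 4 myoblast genes fell from 48.4-fold to 16.9-fold. Myf5, Id1 and Id3 went down, while Myod1 went from 15.7-fold to 20.9-fold. By total reads Id1 and Id3 were lower for H3K4me3, Id3 for H3K4me2, and Id1, Id3 and Myf5 for H3K27ac. Myod1 was not called for any mark. H3K36me3 was lower at Id1 and Id3 and higher at 0 of 5 tested markers. Markers of fat, blood and liver cells had median H3K4me3 between 0.194-fold and 1.16-fold, and those of neurons 1.38-fold in myoblasts and 0.776-fold in myotubes with a highest value of 10.1-fold. Deposited reads ranged from 1858771 (H3K27ac in myoblasts) to 7033100 (H3K36me3 in myoblasts), and between 0.417% and 3.14% of the reads of a library shared position and strand with another.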

How the data were processed

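Processed files of 12 ChIP-seq libraries of C2C12 were used. The authors aligned reads to mm9 with Mosaik and kept unique alignments, and the deposited counts are 1 line of count 1 per aligned read of 34 bp. The deposited peak lists give the score that MACS assigned within each list. Duplicate removal and MACS settings are not given in the sources used here, and mm9 is also the build in the submitters' processing notes. Reads on chromosomes 1 to 19 and X were extended to 150 bp, and midpoints were counted within 1 kb of a start site and over gene bodies. Fold is the count over the library mean per base, with exact 95% Poisson intervals. Ratios were scaled by total reads, with exact conditional binomial intervals. With 1 library per group no test between cell types was possible and no p-value is given. Genes came from GENCODE M1 on NCBIM37. Each gene was represented by the start site with the most H3K4me3 reads. Stretches of 32 bases were counted on both strands of the whole assembly. The members and lists were chosen with earlier results of these data known. Named genes were all members with start sites over 500 bp apart, genes within 1 Mb of Cdkn2a, the listed gene with the highest and lowest ratio per mark, and the cell type markers. Zones along genes and the stretch upstream of Arf were added later. Calculations used Python 3.11.15, numpy 2.4.6, pandas 2.3.3 and scipy 1.17.1 and were tested on simulated data. Alternatives changed windows, extension, duplicates, scaling, added reads, start site, limits and peak lists. An upstream sequence of 1 member is not reported here.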

Additional observations from a re-analysis of the deposited data

How the results depend on the processing

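The run of read-poor windows around Cdkn2a was between 220 and 240 kb long with limits of 5% or 20%, windows of 5 or 20 kb, 1 read per position and strand, and either cell type alone. The longest span between neighbouring reads of the 12 libraries over Cdkn2a was 12.3 kb, since single myotube reads break it up, and that of the 6 myoblast libraries, added after seeing the data, was 197.6 kb. The pooled fold around Cdkn2a and Cdkn2b was 0.245 and 0.0203 over 100 kb, 0.683 and 0.613 over 400 kb, 0.258 and 0.201 over bases other than N, and 0.165 and 0.128 without deposited peaks. Of 84 pairs of member and library, 27 were above the genome mean, and between 23 and 30 under the alternatives. The 4 calls of promoter ratios became 7 with 2 kb either side. The H3K4me2 ratio of Cdkn1a turned to 2.62 at the outermost start site. The H3K36me3 ratio of Cdkn1a at its main start was 1.63 with 2 kb either side, below the limit. Of 2 gene bodies beyond the counting interval, 1 was left without the 1 kb downstream of the start, since Cdkn1c then had under 20 reads of H3K27me3. Scaled by reads outside peaks, the H3K36me3 ratio over the body of Cdkn1a was 1.30 and beyond its interval, and, added after seeing the data, the H3K4me2 ratio over the body of Cdkn1b turned to 0.962 with 1 read added and that of Cdkn2c to 1.104, both within their intervals. Peaks at members, counted only at the start site that represented each gene, numbered 22, and 20 at a score of at least 100. No paired analysis was possible because each mark had 1 library per cell type. Depth limits H3K27ac in myoblasts most, where 3 reads in 2 kb equal 2.06-fold.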

Other observations

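Of the 78 read-poor runs with at least as many readable bases as that around Cdkn2a, 3 others were more than 50% unique. The run at chr4:111710001-112290000 holds Skint4, Skint3 and Skint9, whose family encodes immunoglobulin-like proteins of skin and thymus, and was 70.9% unique with 68 reads in the 12 libraries together. The run at chr4:112480001-113630000 was 69.5% unique and holds no whole protein-coding gene. The run at chr6:129930001-130170000 holds 5 protein-coding genes, among them Klra6, Klra4 and Klra8, receptor genes of natural killer cells, and was 58.6% unique with 23 reads. In the second of these, H3K4me3 in myoblasts was at 3.69% of its mean and H3K27me3 at 2.60% in myoblasts and 3.26% in myotubes, and the other 9 libraries were at or below 1.55%. Among the 17 unique promoters with at most 3 reads, Cdkn2a and Cdkn2b were the members of a cell cycle family, and 6 others belonged to the Skint family.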
